A study of Homo sapiens with 9 samples.

Results

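The transcriptome described here is that of the control cells in a series on MEF2C enhancer function: the 3 libraries labelled SCR1 out of 9 in all, chosen by their sample titles. HAL-01 is a human cell line of B cell precursor leukemia (B-ALL) in which the t(17;19) translocation joins TCF3 to HLF. All cells stably carried Cas9 and GFP, and the SCR1 cells received a control guide (Ctr_SCR) in place of a guide to the MEF2C enhancer that TCF3::HLF binds. RNA was taken on day 13, and the replicates carried the numbers 1, 3 and 4. The other 6 libraries, from cells given the enhancer guides sgRNA_96 and sgRNA_97, were not analysed here. Whether replicates were separate cultures was not stated, so the spread between these libraries may be technical. As a model, HAL-01 is 1 established line grown in serum, and levels measured in it are levels after Cas9 expression and guide delivery.

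TCF3::HLF fuses the transactivation domains of the E protein TCF3 to the DNA-binding and dimerization domain of HLF, a PAR bZIP factor that is active in hematopoietic stem cells and off in normal B cells. The fusion arises in a B cell precursor, a stage at which cells rearrange their immunoglobulin genes with the RAG recombinase and carry the surrogate light chain as part of the pre-B cell receptor. The question addressed was descriptive, namely which lineage, stem cell, signaling, surface and metabolic genes these cells expressed or lacked, and which transcript of a gene carried its expression.

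Levels are given as TPM (transcripts of a gene per 1000000 transcripts), a scale corrected for transcript length on which genes of the same library can be compared, summed over the transcripts of a gene. Where 3 values are given they are for SCR1 replicates 1, 3 and 4 in that order, and a value after ± is the SD over these 3 libraries (n = 3). A gene was called expressed at 1 TPM or more in each library and not detected under 0.1 TPM in each, and the remainder was called low. By these limits 10627 of 19983 protein-coding genes (53.2%) were expressed, 7087 (35.5%) were not detected, and the median gene stood at 2.85 TPM. The counts of expressed members given below for lists and families are to be read against this 53.2%. Library totals were 29777361, 17439072 and 21356387 estimated counts, so that a gene with 0 counts in all 3 libraries could still be present at up to 0.0437 CPM (3 counts over the summed total, in counts per 1000000). No groups were compared, so no test was run. Strandedness was not stated, and 84 of the 444 expressed genes among the 628 in the gene lists share exon bases with another gene, so their values may hold reads of that gene. The other gene was counted only if its mean was 1 TPM or more and at least 0.1 times that of the listed gene.

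On the TPM scale, mitochondrial genes and genes of the translation machinery were the most abundant. The 10 most abundant genes held 12.3% of TPM, and 7 of these were mitochondrial, led by MT-CO3, a subunit of cytochrome c oxidase, with 16550.0, 17193 and 18297 TPM. Cytosolic ribosomal protein genes held 27.1, 26.7 and 26.96% of TPM, and mitochondrial genes 11.4, 12.1 and 12.3%. Of estimated counts, which are not corrected for length, mitochondrial genes held 5.97, 6.18 and 6.35%. The most abundant nuclear genes were EEF1A1, the elongation factor that brings aminoacyl-tRNA to the ribosome, with 13365 ± 106 TPM, RPS18 with 7112 ± 145 TPM and the actin-sequestering TMSB4X with 6768 ± 144 TPM. Others among the 20 highest were MT-ATP8, MT-CO2, MT-ATP6, MT-CO1, MT-ND4, MT-ND4L and MT-ND2 of the mitochondrial genome and RPL37A, RPL41, RPS2, RPS19, RPS24, RPS3, RPS27 and RPL13A of the ribosome. Among genes not annotated as protein-coding, the mitochondrial ribosomal RNA MT-RNR2 led with 4169 ± 376 TPM. It was followed by MTATP6P1, a nuclear copy of mitochondrial sequence, with 1827 ± 108 TPM and by SNHG29, a small nucleolar RNA host gene, with 1553 ± 14.6 TPM. ENSG00000237550, GAS5, HMGB1P6, SNHG5, MT-RNR1, SNHG6 and SNHG32 completed this group, between 344 and 1530.1 TPM. Reads of copies such as MTATP6P1 and HMGB1P6 and of their parent genes were divided by Salmon's model, so these levels are uncertain.

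All B cell precursor markers were expressed in these cells, and most markers of the other lists, apart from myeloid and plasma cell, were not. Of the myeloid markers 6 of 12 were expressed, and of the plasma cell markers 3 of 5. All 14 B cell precursor markers were expressed, with a median of 135 TPM. IGLL1, the lambda5 part of the surrogate light chain, had 1694, 1718 and 1884 TPM. DNTT, the template-independent polymerase that adds bases at immunoglobulin junctions, had 1467, 1520.0 and 1532 TPM. VPREB3 (561, 585 and 582 TPM), CD24 (575, 564 and 569.8 TPM) and VPREB1, the other surrogate light chain part (537, 491 and 531 TPM), came next. VPREB3 and CD24 overlapped in their ranges, and VPREB1 lay under both in every library. The receptor subunits CD79A and CD79B had 280.1 ± 21.6 and 93.3 ± 6.503 TPM, and the B-lineage antigens MME (CD10) and CD22 had 148 ± 8.32 and 123 ± 4.95 TPM. The B-lineage factors PAX5 and EBF1 reached 92.9, 100.3 and 95.8 TPM and 77.5, 82.3 and 71.8 TPM. The lowest marker was RAG1, a subunit of the recombinase, with 50.9, 59.9 and 54.6 TPM, and its partner RAG2 had 67.2, 75.2 and 72.7 TPM. RAG1 and RAG2 lie on opposite strands and share exon bases, so reads of one may be counted for the other.

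**Figure D1:**
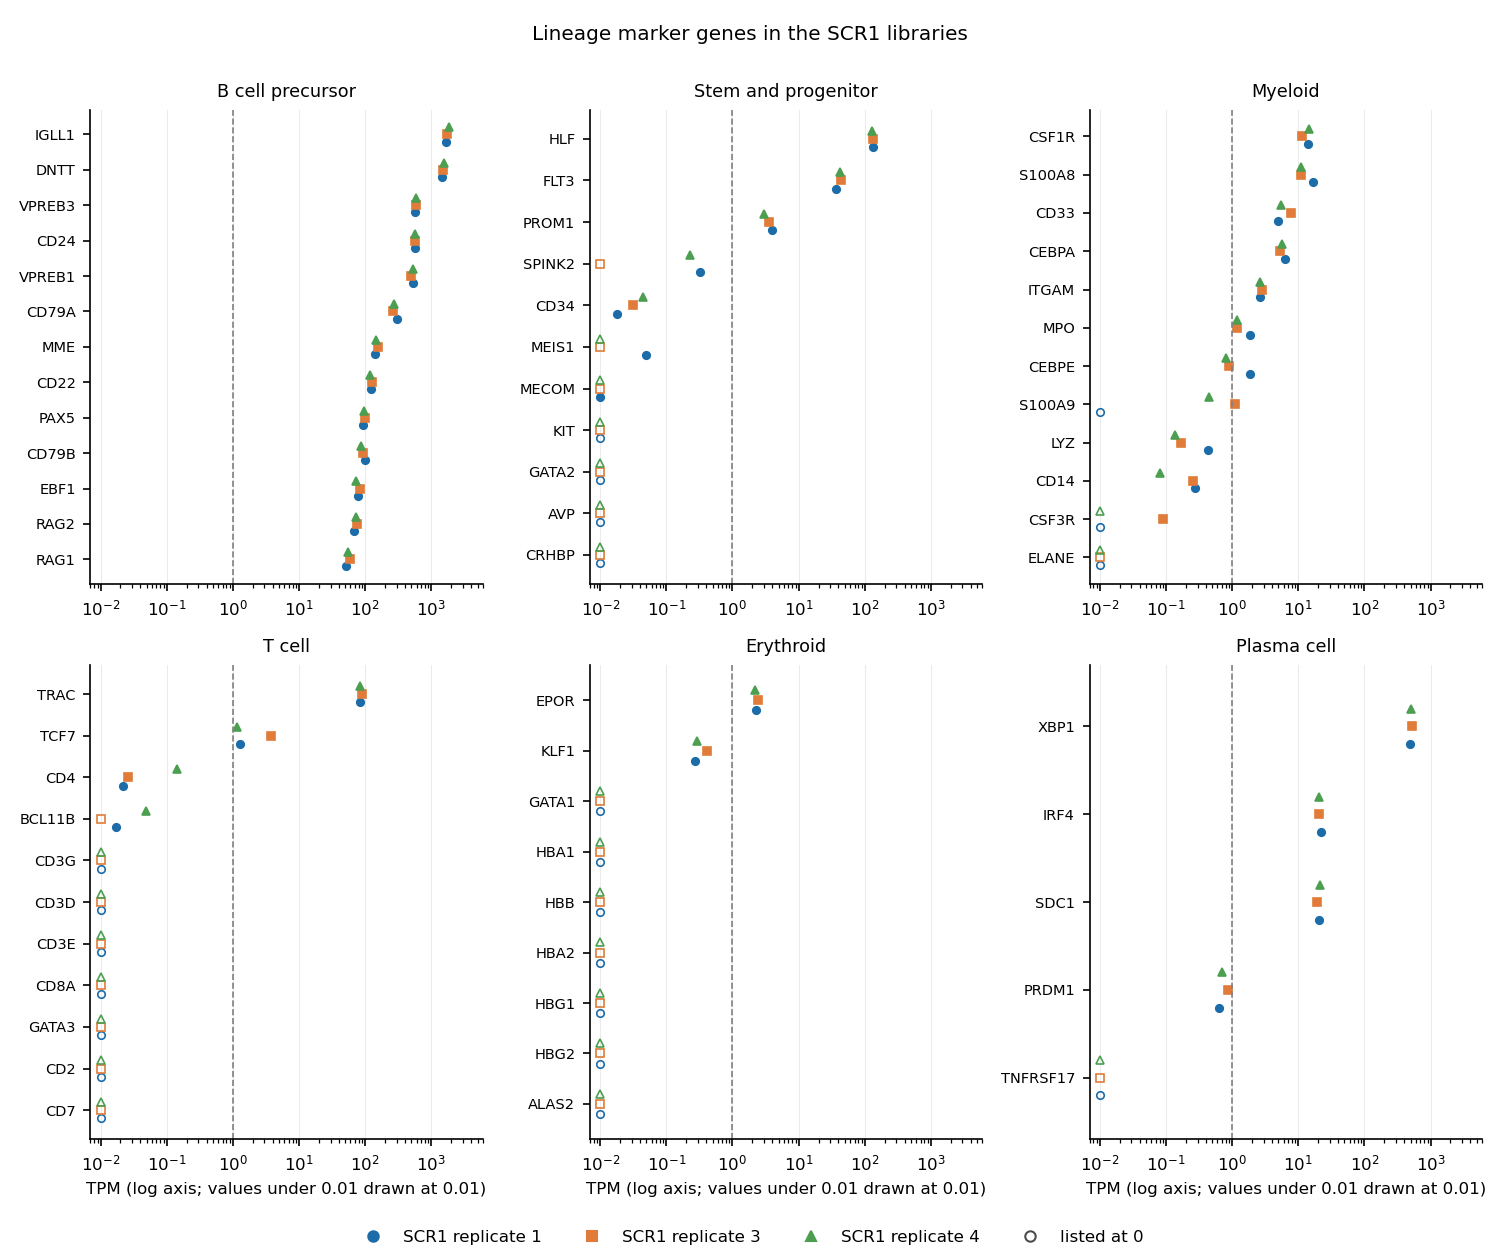
TPM (log axis) of marker genes of 6 lineages (13 of the B cell precursor list), 1 point per SCR1 library, open symbols for genes listed at 0 and a dashed line at 1 TPM. The B cell precursor markers drawn lie at 50.9 TPM or above in each library, whereas most markers of the stem, T cell and erythroid lists are listed at 0 or lie under 0.1 TPM.

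Stem and progenitor markers were largely missing. Of 11 markers, 3 were expressed: HLF with 134, 135 and 128 TPM, the receptor tyrosine kinase FLT3 with 37.1, 43.6 and 42.4 TPM and PROM1 (CD133) with 3.99, 3.54 and 2.98 TPM. HLF is part of the fusion itself, and reads of TCF3::HLF and of the unrearranged gene cannot be told apart in these tables. CD34, the classical progenitor antigen, was not detected at 0.0182, 0.0316 and 0.0443 TPM. KIT, GATA2, AVP and CRHBP were listed at 0 in each library. MEIS1 and MECOM, a pair of stem cell regulators, each had counts in replicate 1 alone, at 0 to 0.0498 TPM and 0 to 0.00923 TPM. SPINK2 was low, with 0.324, 0 and 0.227 TPM.

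Markers of mature and non-B lineages were expressed in part, with TRAC and the plasma cell gene XBP1 the highest. In bulk RNA a low level in few cells and in all cells cannot be told apart. Among 12 myeloid markers 6 were expressed, the highest being the receptor CSF1R (13.8, 11.5 and 14.5 TPM) and the calcium-binding protein S100A8 (16.8, 11.1 and 11.03 TPM). CD33 (6.08 ± 1.46 TPM), the factor CEBPA (5.80 ± 0.551 TPM), ITGAM (2.72 ± 0.126 TPM) and MPO (1.89, 1.18 and 1.17 TPM, of which 1.11, 0.851 and 1.11 on protein-coding models) followed. The share of the list that was expressed was thus close to that over all protein-coding genes. CEBPE and S100A9 reached 1 TPM in 1 of the 3 libraries each, with 1.86, 0.911 and 0.797 TPM and 0, 1.12 and 0.450 TPM. LYZ and CD14 stayed under 1 TPM, CSF3R was not detected and the granule protease ELANE was listed at 0. Of the 11 T cell markers, TRAC, the constant region of the T cell receptor alpha chain, stood out with 82.6, 88.4 and 84.1 TPM. The CD3 chain genes CD3D, CD3E and CD3G were at 0, as were CD8A, GATA3, CD2 and CD7. TCF7, whose exons overlap those of SKP1, had 1.26, 3.72 and 1.17 TPM, higher in replicate 3 than in the other two. CD4 was low and BCL11B was not detected. NKG7, a granule protein gene of cytotoxic cells, had 20.2, 21.8 and 21.6 TPM, whereas NCAM1, KLRD1, KLRF1 and NCR1 were at 0 and GNLY had counts in replicate 3 only.

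The erythroid, megakaryocyte, stromal and epithelial lists were close to empty. EPOR, the erythropoietin receptor, had 2.29, 2.45 and 2.20 TPM, but on transcripts annotated as protein-coding it had 0.883, 1.59 and 0.745 TPM. GATA1, ALAS2 and the globins HBA1, HBA2, HBB, HBG1 and HBG2 were at 0, and KLF1 was low. Of 5 megakaryocyte genes, GP9, a subunit of the von Willebrand factor receptor, was expressed with 5.56, 6.99 and 7.15 TPM, ITGA2B was not detected, and PF4, PPBP and GP1BA were at 0. Of 9 stromal and endothelial genes, the growth factor receptor PDGFRB was expressed (5.02, 6.68 and 6.22 TPM). The collagens COL1A2 and COL3A1 and DCN, LUM and CDH5 were at 0, PECAM1 and VWF were not detected, and COL1A1 was under 1 TPM. EPCAM, KRT8, KRT18, KRT19 and CDH1 were at 0 in each library. Among plasma cell genes, XBP1, a factor of the unfolded protein response and of secretory differentiation, had 495, 522 and 509 TPM, IRF4 21.1 ± 0.499 TPM and SDC1 (CD138) 20.5 ± 1.05 TPM, while PRDM1, the plasma cell repressor, stayed under 1 TPM and TNFRSF17 (BCMA) was at 0. Summed over each list, the B cell precursor markers amounted to 5888 to 6119 TPM, against 537 to 563 TPM for plasma cell, 173 to 182 TPM for stem cell, 83.9 to 92.2 TPM for T cell, 41.9 to 49.1 TPM for myeloid, 20.2 to 22.1 TPM for NK cell, 5.58 to 7.15 TPM for megakaryocyte, 5.18 to 6.90 TPM for stromal and 2.49 to 2.86 TPM for erythroid markers. These lists differ in length, and HLF, TRAC, NKG7, GP9, PDGFRB and XBP1 each carried most of the sum of its list.

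At the immunoglobulin loci, heavy chain transcripts were abundant and kappa light chain transcripts were not detected. IGHM, the mu constant region, had 186, 171 and 169 TPM and IGHD, the delta constant region, 17.01, 17.3 and 14.7 TPM, whereas IGHG1, IGHG2, IGHG4, IGHA1, IGHA2 and IGHE were at 0 and IGHG3 was low. Among 145 heavy and light chain variable genes, 3 were expressed, and 1 of them carried most of the signal: IGHV1-45 on chromosome 14 had 103 ± 7.80 TPM, against 5.03, 6.74 and 4.99 TPM for IGHV3-72 and 2.40, 1.39 and 1.49 TPM for IGHV4-59. The kappa constant region IGKC was at 0. The lambda constant regions IGLC1 and IGLC2 had 5.69, 2.89 and 8.21 TPM and 5.20, 3.26 and 9.23 TPM, but they share near-identical sequence with each other and with IGLL5 (25.7 ± 2.64 TPM), so their split is uncertain. Of the T cell receptor constant regions only TRAC was expressed, and TRBC1, TRBC2, TRDC, TRGC1 and TRGC2 were at 0. These immunoglobulin and receptor genes, apart from IGHM, IGLL5 and TRAC, were picked with their values known.

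Genes of the pre-B cell receptor and its signaling chain were expressed nearly in full. Of 24 listed genes 23 were expressed, and the list median of 72.7 TPM compares with 2.85 TPM over all protein-coding genes. The list is not limited to downstream genes. Its highest members were IGLL1, VPREB3, VPREB1, CD79A and IGHM, so count and median do not describe the signaling chain alone. The adaptor BLNK had 95.1, 95.3 and 94.1 TPM, and the kinases BTK and SYK had 65.9, 67.5 and 69.1 TPM and 42.8, 43.6 and 42.1 TPM, with a spread of a few TPM or less. The Src family kinases stood in the order FYN (62.7, 50.1 and 57.3 TPM), LYN (20.3, 25.0 and 18.1 TPM) and BLK (8.83, 9.78 and 7.68 TPM). The phospholipase PLCG2 had 45.8 ± 1.88 TPM and the catalytic subunit PIK3CD 60.5 ± 1.56 TPM. On the inhibitory side, the lipid phosphatase INPP5D had 89.0 ± 6.42 TPM, the protein phosphatase PTPN6 63.2 ± 3.31 TPM and the adaptor DOK3 144 ± 0.551 TPM. PRKCB, which links the receptor to NF-kappaB, reached 3.11, 4.44 and 4.01 TPM. Of the recombination machinery, 13 of 14 genes were expressed, ranging from the DNA-bending HMGB1 (2195 ± 40.9 TPM) and the Ku subunits XRCC6 (337 ± 8.57 TPM) and XRCC5 (233 ± 8.23 TPM) to LIG4 (6.73 ± 0.878 TPM), the ligase that closes the joint.

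The genes at the core of the translocation were highly expressed. TCF3 had 291, 275 and 299 TPM, above its relatives TCF4 with 103, 106 and 90.6 TPM and TCF12 with 58.0, 60.7 and 59.1 TPM in every library. ID3, an inhibitor that binds E proteins and keeps them off DNA, had 197, 175 and 191 TPM and ID2 20.8, 22.99 and 26.5 TPM, whereas ID1 stayed under 1 TPM and ID4 was not detected. Among the PAR bZIP factors HLF exceeded DBP (12.7, 8.14 and 10.8 TPM, sharing exon bases with SPHK2) and TEF (2.60, 2.01 and 2.60 TPM) in each library, and NFIL3, which binds the same DNA element as a repressor, had 17.6, 20.3 and 14.0 TPM. TCF3 was thus the most abundant of the E proteins, and HLF the most abundant of the PAR bZIP genes, by ranges that did not overlap those of their relatives. The values of TCF3 and HLF include reads of TCF3::HLF, so the order of the unrearranged genes cannot be read from them. On GRCh38, TCF3 lies at chr19:1609291-1652615 on the minus strand and HLF at chr17:55264960-55325187 on the plus strand.

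MEF2C, the gene whose enhancer the series perturbs, was the leading member of its family. MEF2C encodes a MADS box transcription factor of lymphoid progenitors and muscle, and it had 227, 243 and 215 TPM here. It lies at chr5:88717117-88904257 on the minus strand. MEF2D (56.4, 51.5 and 53.0 TPM) and MEF2A (52.0, 56.4 and 48.8 TPM) lay lower with overlapping ranges, and MEF2B, whose exons overlap BORCS8 on the same strand, had 2.33, 3.72 and 3.94 TPM. The class IIa histone deacetylases, which bind MEF2 and repress its targets, were all present: HDAC7 (41.0, 41.0 and 35.3 TPM) and HDAC5 (42.3, 37.3 and 35.3 TPM) with overlapping ranges, then HDAC9 (14.1, 16.9 and 11.5 TPM) and HDAC4 (5.09, 4.97 and 5.03 TPM). Of the salt-inducible kinases, which phosphorylate these deacetylases and so release MEF2, SIK3 had 8.93, 10.2 and 9.40 TPM and SIK2 5.99 ± 0.145 TPM, whereas SIK1 passed 1 TPM in replicate 3 only (0.370, 1.47 and 0.284 TPM). The related kinases MARK3 and MARK2 had 41.9 ± 1.56 and 24.6 ± 0.599 TPM.

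**Figure D2:**
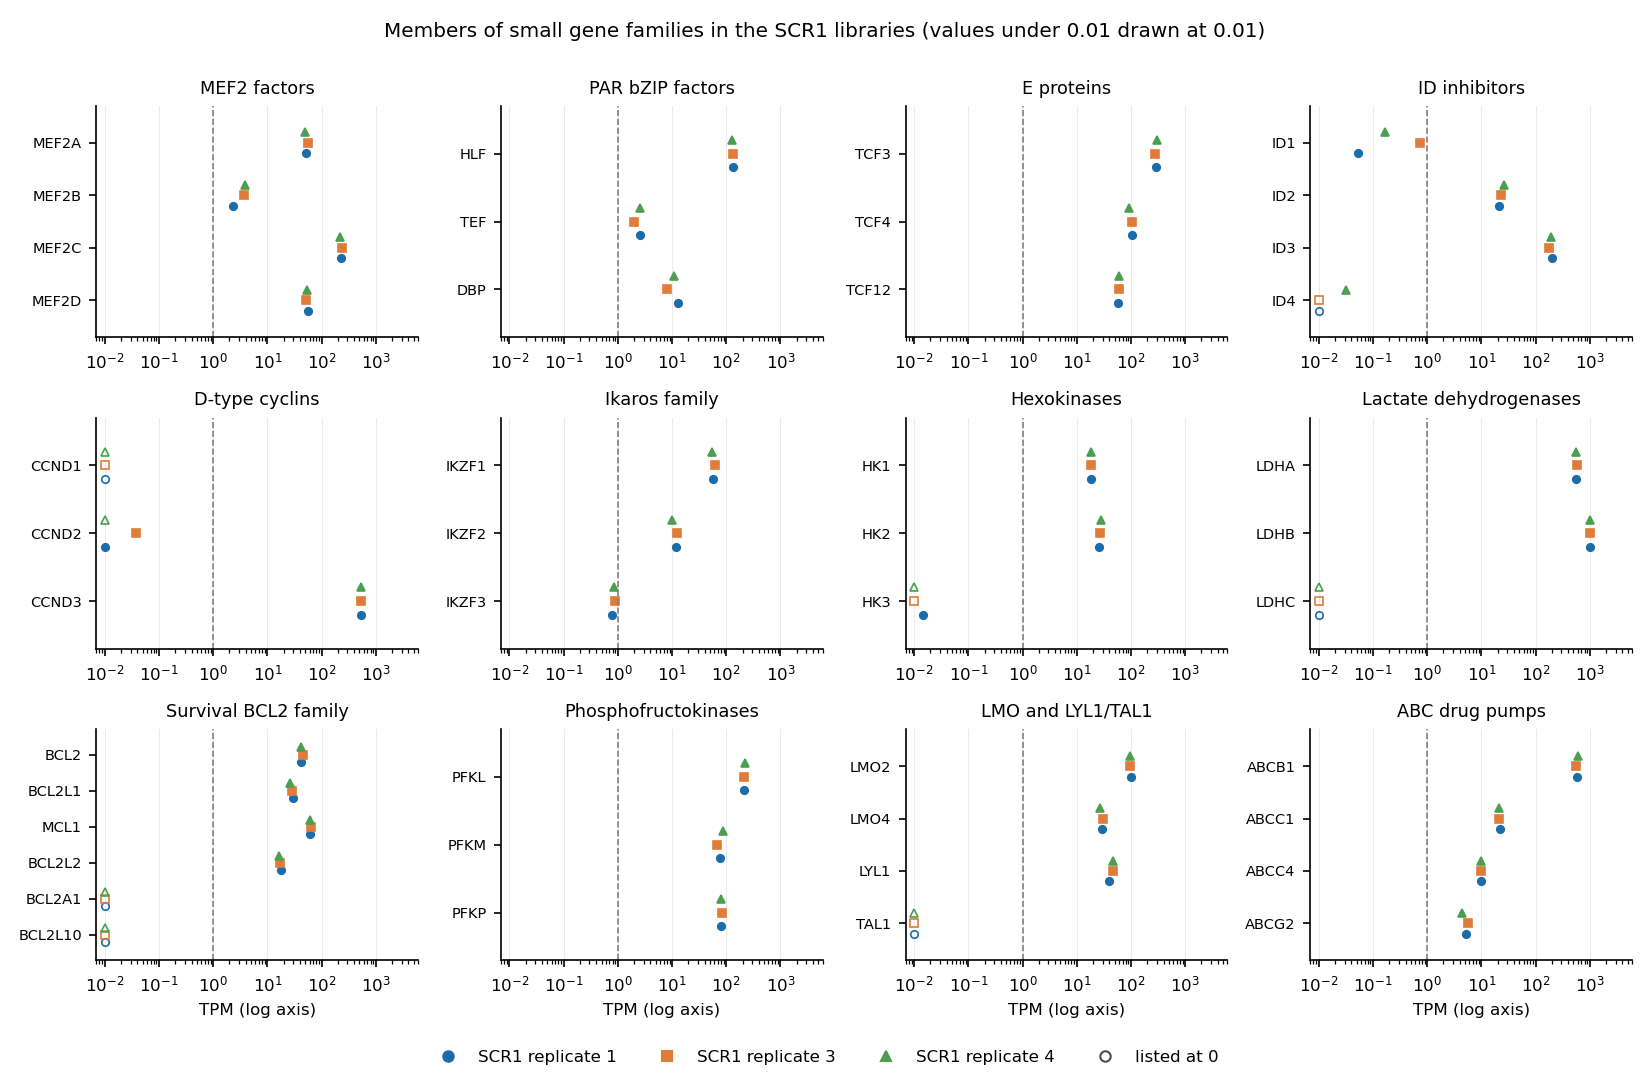
TPM (log axis) of the members of 12 small gene families, 1 point per SCR1 library, open symbols for genes listed at 0 and a dashed line at 1 TPM. In several families 1 member leads in all 3 libraries, such as MEF2C among MEF2 factors, HLF among PAR bZIP factors, CCND3 among D-type cyclins and ABCB1 among the drug pumps.

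B-lineage transcription factors were expressed broadly, 21 of 25, and none was undetected. LEF1, a nuclear effector of WNT signaling that is active in early B cells, led with 698, 614 and 600.1 TPM, highest in replicate 1. The ETS factors ERG (117, 108 and 102 TPM), ELF1 (102 ± 6.27 TPM), FLI1 (59.5 ± 1.71 TPM) and SPI1 (49.7 ± 2.92 TPM) exceeded ETS1 (7.13 ± 0.751 TPM) in every library. POU2AF1, a coactivator of octamer factors, had 83.3 ± 7.81 TPM and SOX4 59.0, 66.8 and 62.6 TPM. IKZF1 (Ikaros) had 57.1, 60.9 and 54.9 TPM and IKZF2 11.7, 12.1 and 9.98 TPM, while IKZF3 (Aiolos), which rises as pre-B cells mature, remained under 1 TPM in each library (0.776, 0.879 and 0.866 TPM). The germinal center repressor BCL6 had 19.2, 21.2 and 18.1 TPM, and FOXO1, FOXP1, BACH2, BCL11A, IRF4 and IRF8 lay between 14.4 and 34.6 TPM. SPIB and POU2F2 passed 1 TPM in 1 library each, with 1.62, 0.323 and 0.810 TPM and 0.454, 1.80 and 0.199 TPM.

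Stem cell factors ranged from highly expressed to undetected. The most abundant were MYC (368, 394 and 433 TPM), MYB (191, 199 and 175 TPM), HLF (reads of the fusion included), LMO2 (98.6, 97.5 and 95.7 TPM), HHEX (50.2, 46.5 and 48.1 TPM), LYL1 (40.2, 45.9 and 47.1 TPM) and RUNX1 (43.6, 43.1 and 40.5 TPM). LMO2 bridges LYL1 or TAL1 to other factors in progenitors, and TAL1 itself was at 0. LMO4 (28.9 ± 1.88 TPM), PBX3 (24.0 ± 2.38 TPM), ZFX (14.8 ± 0.612 TPM) and GFI1 (12.8 ± 0.152 TPM) were expressed as well. MYCN, PRDM16, SOX17, HOXA5, HOXA7, HOXA9 and HOXA10 were at 0, with HOXA3 and GFI1B not detected and NKX2-3 low. In all, 13 of 32 listed factors were expressed (40.6%) and 17 were not detected. Over all protein-coding genes 53.2% were expressed and 35.5% not detected. Of the fetal RNA-binding regulators, IGF2BP3 had 28.8, 31.9 and 30.1 TPM, IGF2BP2 passed 1 TPM in replicate 1 only (1.16, 0.974 and 0.726 TPM), and LIN28A, LIN28B and IGF2BP1 were at 0. HMGA2, a chromatin protein of fetal stem cells, had 2.13, 2.86 and 2.09 TPM, and its relative HMGA1, chosen after its value was seen, had 576 ± 44.7 TPM.

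Whole families of developmental genes were also counted. None of 39 HOX genes and none of 6 GATA factors was expressed. The counts were 1 of 9 PAX factors (PAX5), 5 of 19 SOX factors (SOX4, SOX12, SOX7, SOX18 and SOX13) and 6 of 18 KLF factors (33.3%). The share over all protein-coding genes was 53.2%. Families best known outside blood gave low counts: 1 of 415 olfactory receptor genes was expressed (OR2B6, 2.18, 2.43 and 1.95 TPM), 1 of 55 keratins (KRT10, 6.70 ± 0.436 TPM), 0 of 24 bitter taste receptors, 0 of 19 GABA-A receptor subunits and 1 of 53 clustered protocadherins (PCDHGC3). None of 26 MAGE-A, B and C cancer-testis antigen genes was expressed. These families were defined by gene symbol, and they were added after the levels had been seen.

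Which transcript of a gene carried its expression was examined for a panel of 48 genes. Salmon assigns reads to overlapping transcript models by likelihood, so a share is an estimate and is least certain for genes with many similar models. Of the 48, 43 were at 1 TPM or more in each library. In 22 of these the most abundant transcript held over 50% of the gene's TPM in all 3 libraries, in 6 it did so in some libraries and in 15 in none. The leading transcript was the MANE Select model, the reference transcript agreed by RefSeq and Ensembl, in 25 genes and another model in 18, and it was the same in all libraries in 37. The 5 genes too low to assess were IKZF3, MEIS1, SPINK2, CD34 and CDKN2A. In 14 genes 1 transcript held more than 80% on average, among them RAG1 (99.2, 100.0 and 99.6%), CLSTN2 (97.6, 98.2 and 97.7%), SYK (97.9, 97.4 and 93.8%), ROR1, ENO1, VPREB1, DNTT, FLT3 (90.4, 87.3 and 96.2%), CD79A, PKM, IL7R, BCL2L11 and CCND3 (82.3, 82.8 and 80.4%).

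**Figure D3:**
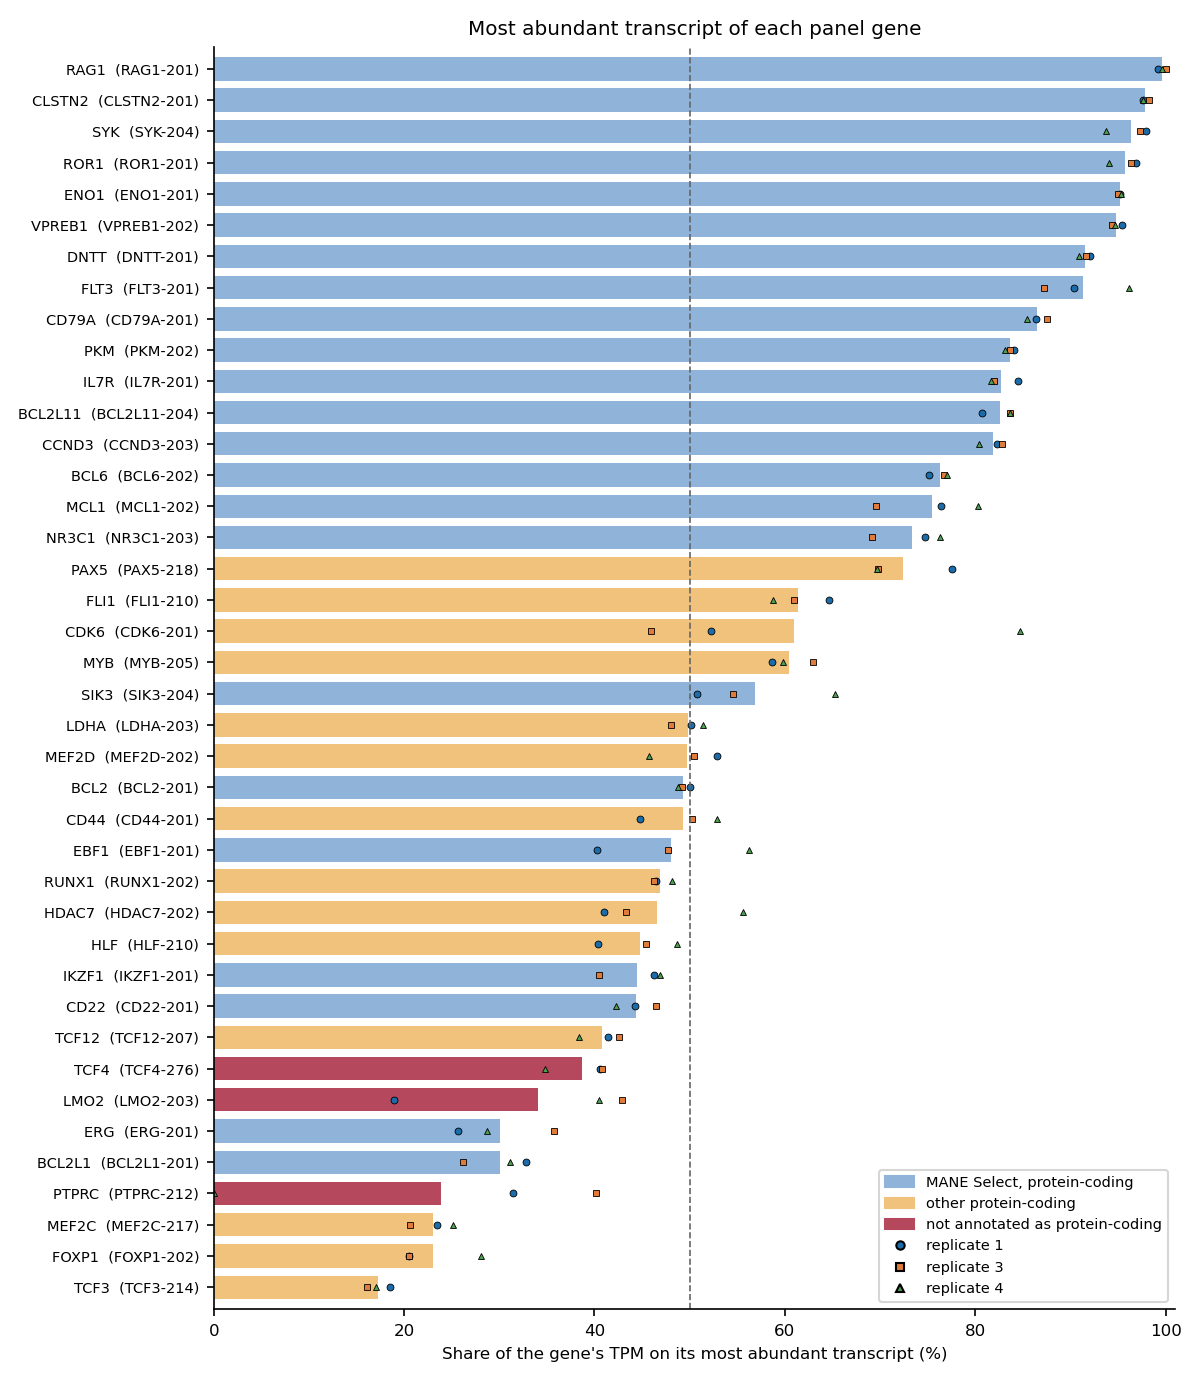
Share of a gene's TPM on its most abundant transcript (%, mean as bar and 1 point per SCR1 library) for 40 panel genes at 1 TPM or more, with a dashed line at 50%. RAG1, CLSTN2 and SYK lie above 90% in each library, whereas TCF3, FOXP1, MEF2C and PTPRC have leading transcripts under 30% of TPM on average, and CDK6, LMO2 and PTPRC differ most between libraries.

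Several transcription factors were spread over many models. The leading transcript of PAX5, PAX5-218, held 77.6, 69.8 and 69.7% and was not the MANE Select model PAX5-201, which held 6.38%. MYB-205 held 58.6, 63.0 and 59.8% of MYB, and FLI1-210 held 64.6, 60.9 and 58.7% of FLI1, with a further 29.8% on FLI1-203, a model annotated as a target of nonsense-mediated decay. RUNX1-202 and RUNX1-207 held 46.9 and 31.1% of RUNX1. BCL6 was more concentrated, with 75.2, 76.7 and 77.0% on BCL6-202. For EBF1, IKZF1 and ERG the MANE Select models led on average, with 40.2, 47.7 and 56.3% for EBF1, 46.2, 40.5 and 46.8% for IKZF1 and 25.6, 35.8 and 28.7% for ERG. In TCF12 the leading model TCF12-207 held 41.5, 42.6 and 38.3%, in FOXP1 FOXP1-202 held 20.5, 20.6 and 28.1%, and in TCF4 the leading model was TCF4-276, without an annotated coding sequence, with 40.5, 40.8 and 34.8%. The leading model was not the same in all libraries for TCF3, FOXP1, ERG, LMO2, PTPRC and CDK6. LMO2-203 held 18.9, 42.9 and 40.5%, and CDK6-201 52.3, 45.9 and 84.7%. PTPRC had 79.0 ± 12.2% of its TPM on models not annotated as protein-coding, and its coding models summed to 0.530, 0.361 and 0.182 TPM.

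Among the remaining panel genes, the glucocorticoid receptor NR3C1 had 74.7, 69.1 and 76.3% on NR3C1-203, MCL1 76.4, 69.6 and 80.3% on MCL1-202, BCL2 49.99, 49.2 and 48.8% on BCL2-201 and BCL2L1 32.8, 26.1 and 31.1% on BCL2L1-201. The adhesion receptor CD44 had 44.8, 50.2 and 52.8% on CD44-201, and CD22 had 44.3, 46.4 and 42.2% on CD22-201 with 37.6% on models not annotated as protein-coding. LDHA, SIK3, HDAC7 and MEF2D had leading shares of 49.9, 56.9, 46.6 and 49.7% on LDHA-203, SIK3-204, HDAC7-202 and MEF2D-202.

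For several genes the leading share depended on how it was formed. By estimated counts in place of TPM, it was 31.5% for TCF3, 58.4% for TCF4, 45.4% for FOXP1, 38.7% for PTPRC and 77.9% for CD44. Over transcripts annotated as protein-coding alone, it was 88.3% for LMO2, 77.6% for EBF1, 71.1% for CD22, 70.8% for HDAC7, 37.5% for PTPRC, 36.7% for FOXP1 and 16.5% for TCF4. These shares differ from those over all transcripts by TPM by more than 1.5 times, so concentration on 1 transcript is uncertain for these genes.

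HLF, TCF3 and MEF2C, the genes of the fusion and of its enhancer target, were each split over several models. HLF was carried by HLF-210 with 40.4, 45.4 and 48.7%, HLF-208 with 34.6, 29.6 and 25.4%, HLF-204 with 14.1, 13.6 and 14.2% and the MANE Select model HLF-201 with 10.95, 11.3 and 11.7%. Exons 2 to 4 of HLF-201 were overlapped by all annotated HLF models with reads assigned, and its first exon by HLF-201 alone. Such overlap follows from the annotated models and does not show that reads lay on each exon. TCF3 was split over 7 models of 5% or more, led by TCF3-214 (18.5, 16.1 and 17.1%), the retained-intron model TCF3-213 (15.8, 15.2 and 16.5%) and the MANE Select model TCF3-201 (11.8, 16.4 and 11.7%). The share of TCF3 TPM on models that overlap an exon of TCF3-201 differed along the gene. It was 32.1, 34.7 and 36.05% for its first exon of 19 and between 34.0 and 58.4% on average for exons 2 to 14, and it was 88.5, 89.1 and 88.4% for exon 17, 32.3, 34.2 and 34.8% for exon 18 and 72.1, 73.6 and 71.3% for exon 19. The reads of TCF3::HLF, which holds only the first part of TCF3 and only a part of HLF, are among those counted here for both genes. They cannot be separated. MEF2C was split over 6 of 57 models at 5% or more, led by MEF2C-217 (23.4, 20.6 and 25.1%) and MEF2C-213 (20.7, 19.1 and 17.4%), while the MANE Select model MEF2C-209 held 0.213%.

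Alternative coding exons were therefore counted over models that share an exon and the facing ends of its neighboring exons. Models with other neighboring exon ends were left out, so a share need not cover every model with the exon. PKM, pyruvate kinase, has a pair of mutually exclusive exons that distinguish the PKM1 and PKM2 enzymes. Models with the PKM2 exon held 96.9, 96.6 and 96.6% of the TPM of both, with an SD of 0.161 percentage points. The exons are shown as GENCODE transcript sequence on GRCh38, in the direction of the RNA and with capitals for the bases that differ between them (62 of 167). The PKM2 exon lies at chr15:72202454-72202620 and the PKM1 exon at chr15:72203022-72203188, both on the minus strand and within the coding sequence.
PKM2 exon: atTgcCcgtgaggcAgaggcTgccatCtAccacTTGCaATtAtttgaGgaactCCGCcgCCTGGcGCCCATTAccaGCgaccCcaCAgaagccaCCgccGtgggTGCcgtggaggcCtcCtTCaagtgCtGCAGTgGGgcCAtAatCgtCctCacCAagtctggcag
PKM1 exon: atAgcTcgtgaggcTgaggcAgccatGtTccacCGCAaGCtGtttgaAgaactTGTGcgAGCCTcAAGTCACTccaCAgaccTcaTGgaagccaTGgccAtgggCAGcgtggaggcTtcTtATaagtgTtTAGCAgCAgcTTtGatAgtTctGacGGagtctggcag

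MEF2C has a similar choice between a pair of coding exons that follow the DNA-binding MADS and MEF2 domains. The exon at chr5:88761185-88761328 (144 bases, minus strand), which the MANE Select model carries, held 92.2, 90.9 and 93.2% of the TPM of both, and its alternative at chr5:88760988-88761125 (138 bases) held 7.80, 9.06 and 6.83%. The pair is shown because its members encode alternative parts of the same protein region, and capitals mark bases that differ or have no partner in a global alignment, in which 90 bases were identical.
MEF2C 144-base exon: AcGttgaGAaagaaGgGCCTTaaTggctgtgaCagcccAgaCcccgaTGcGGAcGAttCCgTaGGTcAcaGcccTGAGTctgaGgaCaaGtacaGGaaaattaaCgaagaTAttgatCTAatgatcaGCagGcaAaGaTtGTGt
MEF2C 138-base exon: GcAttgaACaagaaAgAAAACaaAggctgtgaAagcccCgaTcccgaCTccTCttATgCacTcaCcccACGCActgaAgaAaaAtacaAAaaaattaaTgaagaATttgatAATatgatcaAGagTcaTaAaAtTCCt
MEF2D showed the same tilt, with 5.69, 9.10 and 14.5% on its 135-base exon (chr1:156480643-156480777, minus strand) against its 138-base alternative. A short exon in the transactivation domain, often named the beta exon, was included in 16.6, 17.9 and 16.4% of MEF2C TPM on models that either include or skip it. This exon lies at chr5:88730211-88730234 on the minus strand and is shown whole in capitals.
MEF2C 24-base exon: TCTGAGGATGTCGACCTGCTTTTG
The corresponding exons were included in 21.5, 26.8 and 15.9% for MEF2A (24 bases) and 36.1, 38.3 and 35.9% for MEF2D (21 bases). MEF2D thus included its short exon more often than MEF2C in each library.

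TCF3 encodes the E12 and E47 proteins, which differ in the exon for the basic helix-loop-helix domain, and in TCF3::HLF the bZIP domain of HLF stands in place of this domain. Of the TPM on models with either exon between the same neighboring exon ends, the 224-base exon held 31.3, 33.9 and 22.5%, lowest in replicate 4. The models concerned carried 33.7% of TCF3 TPM.

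**Figure D4:**
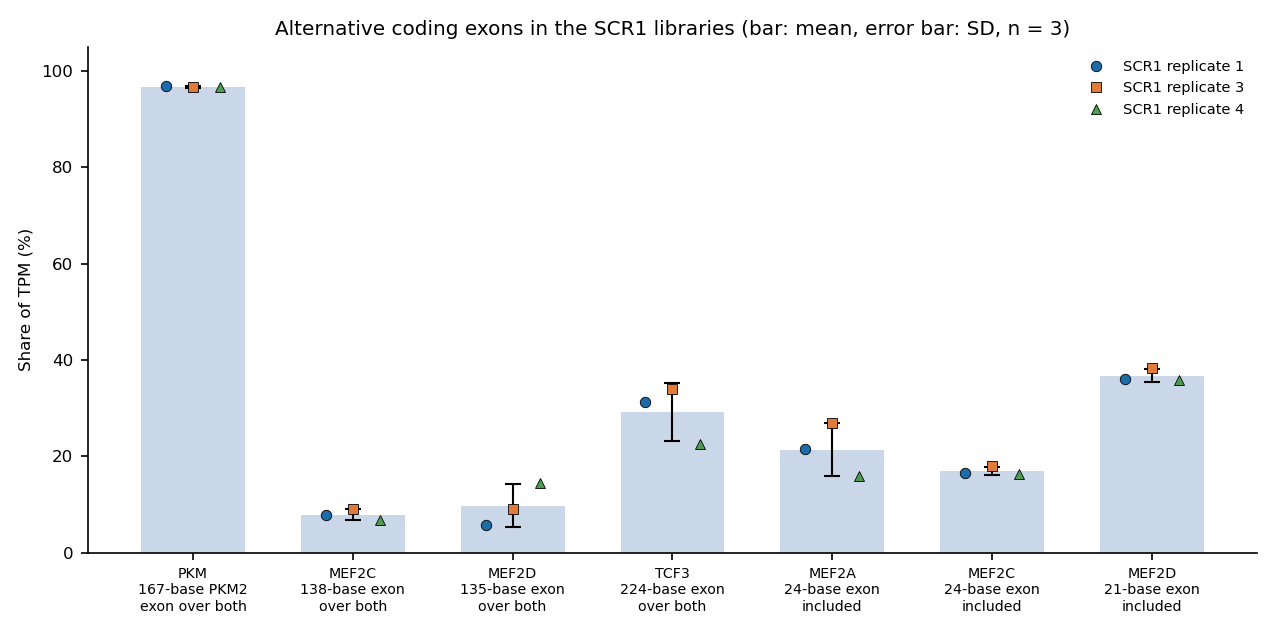
Share of TPM (%) on the named exon in each SCR1 library, with bars for the mean and error bars for the SD (n = 3); the 4 bars on the left give 1 exon of a mutually exclusive pair over both, and the 3 on the right a short exon over models that include or skip it. Only models with the same neighboring exon ends are counted. The PKM2 exon lies above 96% in each library, the 138-base MEF2C exon between 6.83 and 9.06%, and the TCF3 exon varies most, between 22.5 and 33.9%.

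Surface antigens in clinical or diagnostic use spanned the whole range of levels. Of 48 listed antigens 33 were expressed (68.8%, against 53.2% over all protein-coding genes). Of these, 12 had a mean of 100 TPM or more, as had 1135 of all 19983 protein-coding genes. CD74 (the invariant chain), CD24, CD52, CD99 and CD79A were highest, with CD52, the target of alemtuzumab, at 559.9, 546 and 519 TPM and CD99 at 348, 319 and 338 TPM. CD22, the target of inotuzumab, had 121, 128 and 119 TPM. CD20 (MS4A1) and CD38, the targets of rituximab and daratumumab, were lower at 15.4, 18.4 and 15.4 TPM and 13.5, 15.0 and 15.2 TPM. CD70 (112, 119 and 108 TPM), CD47 (115, 135 and 122 TPM) and the tetraspanin CD81 (202 ± 15.4 TPM) were abundant. The orphan receptor ROR1 had 5.30, 5.76 and 6.36 TPM and CRLF2, the receptor for TSLP, 2.17, 1.98 and 2.23 TPM. PTPRC, which encodes the pan-leukocyte antigen CD45, had 1.54, 2.05 and 1.69 TPM, under CD20 in each library. CD69, CD27 and CD40 reached 1 TPM in some libraries only, with 1.46, 1.79 and 0.797, 1.24, 1.22 and 0.503 and 0.937, 1.02 and 0.603 TPM. CR2 (CD21), FCER2 (CD23), CD276, IL2RA, KIT, THY1 and TNFRSF17 were at 0, and CD34 and SLAMF7 were not detected. CD9, a tetraspanin chosen after its value was seen, had 557, 541 and 547 TPM, and the inhibitory ligand CD274 (PD-L1) stayed under 1 TPM.

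Antigen presentation genes were expressed in 25 of 26 cases, with a median of 102 TPM. B2M, the invariant class I subunit, had 2366, 2582 and 2403 TPM, and HLA-B and HLA-C had 1289 ± 65.3 and 379.5 ± 18.1 TPM. The class II gene HLA-DRA had 582, 651 and 585 TPM, its transactivator CIITA 39.3, 42.4 and 40.5 TPM, and HLA-DMB and HLA-DOB, which edit the class II peptide, 21.7 ± 2.09 and 8.89 ± 0.804 TPM. HLA-G passed 1 TPM in replicates 1 and 4 only. HLA alleles differ from the reference sequence, so levels of single HLA genes rest on how their reads were assigned.

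Homing receptors were represented mainly by CXCR4, the receptor for the marrow chemokine CXCL12, with 296, 317 and 281 TPM. It was the only one of 22 chemokine receptor genes that was expressed. CCR7 was low, and CXCR5 and CCR9 were at 0. The integrin subunits ITGA4 and ITGB1, which form VLA-4, had 54.5, 60.8 and 55.1 TPM and 43.9, 47.9 and 42.8 TPM, ITGB2 34.5 ± 0.779 TPM, ITGA5 32.8 ± 0.671 TPM and ITGA6 5.80, 10.6 and 7.51 TPM. CD44 had 33.5, 34.2 and 26.7 TPM, lowest in replicate 4, and ICAM2 29.2 ± 2.45 TPM. S1PR1, which directs egress from tissue, had 1.97, 0.883 and 1.58 TPM, under 1 TPM in replicate 3. ITGAL and SELPLG stayed under 1 TPM, PECAM1 was not detected and JAM3 was at 0. The list as a whole had 12 of 21 members expressed (57.1%), close to the 53.2% over all protein-coding genes.

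Of 55 cytokine and growth factor signaling genes 40 were expressed (72.7%, against 53.2% over all protein-coding genes), with a wide range of receptor levels. IL7R, the receptor that sustains B cell precursors, had 144, 159 and 151 TPM. The common gamma chain IL2RG, with which it normally pairs, was not detected (0, 0.0571 and 0 TPM). SOCS2, a STAT5 target that dampens cytokine signaling, was the highest of the list with 275, 278 and 290.3 TPM, whereas its relatives CISH (1.93 ± 0.115 TPM), SOCS1 (1.14, 0.981 and 1.60 TPM) and SOCS3 (under 1 TPM) were far lower. STAT6, STAT5B and STAT5A had 71.9 ± 4.70, 64.1 ± 4.60 and 42.5 ± 1.06 TPM, and STAT3 23.4 ± 2.20 TPM. Among the Janus kinases TYK2 (54.0, 49.4 and 50.01 TPM) and JAK1 (47.5, 51.3 and 46.2 TPM) had overlapping ranges, above JAK3 (7.01, 7.33 and 6.86 TPM, of which 0.970, 1.44 and 1.57 on protein-coding models) and JAK2 (3.48, 4.63 and 3.58 TPM). Of receptor tyrosine kinases, FGFR1 had 54.2, 46.1 and 51.4 TPM, FLT3 41.0 ± 3.46 TPM, INSR 16.6 ± 0.872 TPM, EPHB4 13.1 ± 2.14 TPM, FLT1 12.2 ± 2.01 TPM, FLT4 9.93 ± 1.47 TPM and IGF1R 7.11 ± 0.0864 TPM. KIT, KDR, NTRK3, AXL and EGFR were at 0, and CSF3R and PDGFRA were not detected. ERBB2 and CSF2RA reached 1 TPM in some libraries only. Of the RAS pathway, the GTPase genes HRAS and NRAS had 34.2 ± 1.24 and 32.5 ± 0.668 TPM and the kinase MAPK3 had 56.1 ± 7.11 TPM.

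Developmental signaling pathways were partly represented. The lists for WNT, NOTCH, TGF-beta, interleukin-1 and chromatin genes were added after the first levels had been seen. Over all protein-coding genes 53.2% were expressed, and the list counts are to be read against this share. In the WNT list 14 of 22 genes were expressed: besides LEF1, the coactivator CTNNB1 had 118, 116 and 109 TPM, and the R-spondin receptor LGR5 32.4, 31.0 and 28.9 TPM, whereas its relative LGR4 was under 1 TPM. The feedback inhibitor AXIN2 had 11.1, 11.2 and 7.97 TPM. RNF43, DKK3 and NKD1 were not detected, and TCF7L1, DKK1, SFRP1 and WLS, the carrier needed for WNT secretion, were at 0. Only WNT3 (9.05, 9.28 and 9.26 TPM) and WNT5B (1.91, 2.95 and 1.26 TPM) of 19 ligands were expressed. Of 10 frizzled receptors 5 were expressed, close to the share over all protein-coding genes. In the NOTCH list 13 of 20 genes were expressed. NOTCH2 (21.3, 24.5 and 19.1 TPM) and NOTCH1 (9.69, 8.62 and 8.81 TPM) were accompanied by the NOTCH-responsive genes DTX1 (38.9, 38.0 and 39.3 TPM) and NRARP (10.6, 10.96 and 9.92 TPM), whereas HES1 and HEY1 were not detected and HES4 was at 0. NOTCH4 and the ligand DLL3 reached 1 TPM in 1 library each. In the TGF-beta list 16 of 21 were expressed, among them the coreceptor ENG (63.0, 56.3 and 59.9 TPM), SMAD2 (64.3 ± 4.49 TPM), TGFBR2 (34.0 ± 3.16 TPM), TGFBR1 (9.18 ± 0.691 TPM) and BMP2 (8.49, 10.1 and 8.72 TPM), and BMPR1A, BMP4 and BMP7 were at 0. The inhibitory SMAD6 reached 1 TPM in replicate 3 only.

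Few cytokine genes were expressed. Of 41 interleukin genes 3 were expressed: IL1B with 100.1, 105.1 and 109.6 TPM, IL17D with 2.20 ± 0.0582 TPM and IL32 with 1.82 ± 0.549 TPM. IL1A, its antagonist IL1RN and the accessory receptor IL1RAP were at 0, IL18 was not detected and IL1R1 was under 1 TPM. CASP1, the protease that activates IL-1beta, had 14.9, 14.2 and 13.4 TPM, its adaptor PYCARD 64.1, 66.9 and 68.8 TPM and the pore protein GSDMD 47.3, 41.3 and 63.9 TPM. The sensor NLRP1 had 9.29 ± 0.904 TPM and NLRP3 1.31, 2.31 and 0.796 TPM, under 1 TPM in replicate 4. Of 43 chemokine genes 5 were expressed, led by CXCL16 (14.8 ± 2.06 TPM) and CCL28 (8.34 ± 0.947 TPM), and of 22 FGF genes 3, led by FGF9 (15.8, 17.5 and 16.1 TPM).

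Apoptosis regulators included both pro-survival and pro-death members of the BCL2 family, with 22 of 26 genes expressed. The effector BAX was highest with 229.6, 210.3 and 216 TPM, and BAK1 had 27.9 ± 1.44 TPM. Among the survival proteins that are drug targets, MCL1 had 60.9, 63.8 and 60.8 TPM, BCL2, the target of venetoclax, 42.0, 45.5 and 42.2 TPM and BCL2L1 (BCL-xL) 29.9, 28.5 and 26.6 TPM, in the same order in each library and without overlap. BCL2L2 followed with 17.1 ± 0.824 TPM, and BCL2A1, BCL2L10 and BOK were at 0. The BH3-only genes BID (64.2 ± 2.76 TPM), BAD (42.4 ± 5.83 TPM), PMAIP1 (33.6 ± 2.39 TPM), BBC3 (15.4 ± 1.47 TPM) and BCL2L11 (BIM, 10.3 ± 0.893 TPM) exceeded HRK, BMF and BIK, which lay between 1.77 and 2.02 TPM. BIRC5 (survivin) had 94.2 ± 4.05 TPM and BIRC3 was low. FAS, the death receptor, had 4.98, 4.77 and 4.48 TPM, of which 0.221, 0.572 and 1.04 TPM were on protein-coding models.

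Cell cycle genes were expressed in 27 of 33 cases (81.8%, against 53.2% over all protein-coding genes). CCND3 was the only D-type cyclin expressed, with 528, 543 and 525 TPM. CCND1 was at 0 in each library and CCND2 was not detected (0.00722, 0.0376 and 0 TPM). Of the partner kinases CDK4 had 267, 261 and 257 TPM and CDK6 28.2, 29.6 and 27.7 TPM. The proliferation genes MKI67, CDK1 and CCNB1 had 109 ± 7.83, 149 ± 13.3 and 129 ± 1.38 TPM. The cell cycle inhibitor CDKN1A (p21) and the ubiquitin ligase MDM2 had 229.7, 230.4 and 216 TPM and 302, 309 and 279 TPM. CDKN2A, which encodes p16 and p14ARF, and CDKN2B had 0 counts in all 3 libraries. The long noncoding RNA ENSG00000264545, whose gene extends across the CDKN2A locus, had 29.2, 30.5 and 31.1 TPM, while CDKN2B-AS1 was at 0. MTAP, the gene next to CDKN2A, was under 1 TPM with 0.751, 0.971 and 0.729 TPM. These neighbors of CDKN2A were chosen after their values were seen. CDKN2C (63.1 ± 3.04 TPM) and CDKN2D (22.7 ± 1.36 TPM), of the same inhibitor family, were expressed, as were CDKN1B (37.8 ± 2.97 TPM) and RB1 (64.0 ± 5.84 TPM). CDKN1C was low and CCNA1 was at 0.

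Genes that bear on drug response were nearly all expressed, 30 of 31, with a median of 56.8 TPM. ABCB1, the efflux pump P-glycoprotein, was the highest of the list with 577, 547 and 604 TPM and exceeded ABCC1 (22.2, 20.9 and 21.4 TPM), ABCC4 (9.87 ± 0.110 TPM) and ABCG2 (5.15 ± 0.651 TPM) in each library. It was also the most abundant of 45 ABC transporter genes, of which 23 were expressed (51.1%, against 53.2% over all protein-coding genes). For antimetabolites, TYMS (459 ± 17.4 TPM), the polyglutamating enzyme FPGS (127 ± 8.05 TPM), its opponent GGH (66.9 ± 4.66 TPM) and the folate carrier SLC19A1 (20.6, 20.8 and 28.9 TPM) were present. The thiopurine genes HPRT1, NT5C2 and TPMT had 96.7 ± 6.10, 56.8 ± 2.92 and 4.59 ± 0.542 TPM. The cytarabine kinase DCK had 66.8, 69.7 and 64.4 TPM, SAMHD1, which hydrolyzes its product, 9.86, 9.85 and 9.43 TPM, and the deaminase CDA was at 0. The glucocorticoid receptor NR3C1 had 31.7, 37.8 and 34.6 TPM, and its targets FKBP5 and TSC22D3 67.1 ± 1.89 and 3.99 ± 0.583 TPM. ASNS, the asparagine synthetase that bears on asparaginase, had 50.4, 60.7 and 53.3 TPM. The topoisomerases TOP2B and TOP2A had 502 ± 10.9 and 181 ± 12.9 TPM, and CRBN, the target of the immunomodulatory drugs, 29.3 ± 2.36 TPM.

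Of the glycolytic isozymes and carriers, 26 of 37 were expressed (70.3%, against 53.2% over all protein-coding genes). GAPDH had 4543, 4121 and 4103 TPM, highest in replicate 1, and ENO1 1232, 1135 and 1156 TPM. LDHB exceeded LDHA in each library, with 1008, 991 and 1001 TPM against 546, 579.8 and 562 TPM. HK2 exceeded HK1, with 26.1, 26.97 and 27.8 TPM against 18.4, 18.3 and 18.1 TPM, whereas HK3 was not detected. The 3 phosphofructokinases stood in the order PFKL (214 ± 2.35 TPM), PFKP (82.4 ± 1.90 TPM) and PFKM (76.4 ± 9.50 TPM), the last pair overlapping. SLC2A1 (GLUT1) had 35.2, 35.6 and 50.4 TPM, highest in replicate 4, SLC2A3 9.46 ± 0.441 TPM, and SLC2A4 stayed under 1 TPM. The lactate carrier SLC16A1 had 74.1 ± 2.05 TPM against 1.43 ± 0.294 TPM for SLC16A3. On protein-coding models SLC16A3 had 0.895, 0.517 and 1.14 TPM. PGK2, GAPDHS, LDHC, SLC2A2 and PDK4 were at 0, and the liver and red cell kinase PKLR was not detected.

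Biosynthetic and redox genes were expressed in 33 of 37 cases at a median of 75.2 TPM. The serine pathway was represented by PHGDH (332, 320.5 and 315 TPM), PSAT1 (77.9 ± 5.55 TPM) and PSPH (39.5 ± 2.33 TPM), and the mitochondrial folate enzymes SHMT2 (206, 203 and 186 TPM) and MTHFD2 (189.8, 212 and 184 TPM) exceeded the cytosolic SHMT1 (34.98, 34.7 and 36.9 TPM) and MTHFD1 (90.3, 100.3 and 99.4 TPM). GLUL, glutamine synthetase, had 195 ± 14.0 TPM, and the glutaminase GLS2 was at 0. For lipids, SCD (176 ± 7.83 TPM), ACLY (159 ± 3.23 TPM) and FASN (82.1 ± 4.13 TPM) were expressed, and CPT1C was not detected. SOD1 (377 ± 9.16 TPM), TXN (350.2 ± 17.3 TPM) and GPX4 (234 ± 8.04 TPM) led the redox genes. SLC7A11, the cystine importer, stayed under 1 TPM in each library (0.563, 0.679 and 0.373 TPM), and HMOX1 was not detected. The ferritin chains FTH1 and FTL had 915 ± 31.7 and 697 ± 51.5 TPM and the transferrin receptor TFRC 83.9 ± 5.50 TPM, while HBE1, HBD and HBM were at 0 and HBZ had counts in replicate 3 only.

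Chromatin regulators were almost uniformly present, 33 of 34, but at moderate levels with a median of 25.2 TPM. The Polycomb proteins BMI1 and EZH2 had 172, 176 and 174 TPM and 97.4, 109.8 and 98.9 TPM, EZH1 32.0 ± 0.813 TPM. Among the deacetylases HDAC2 (156, 178 and 162 TPM) and HDAC1 (118, 117 and 113 TPM) were highest. DNMT1 had 102 ± 4.05 TPM, DNMT3A 36.3 ± 2.17 TPM and DNMT3B 10.0 ± 0.942 TPM. The TET dioxygenases differed, with TET3 at 8.05 ± 0.205 TPM, TET2 at 1.64 ± 0.0499 TPM and TET1 not detected.

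A set of 19 genes that the study had selected as high in patients with this leukemia subtype was taken by name from its ontology table. The study reports more such genes than this, so the set does not hold all of them. The study also used the response of HAL-01 cells to loss of the fusion to select them, so their presence is not independent evidence. In the SCR1 libraries 18 of the 19 were expressed, at a median of 11.01 TPM, and ARHGAP32 stayed under 1 TPM. The membrane protein gene GPM6B had 140.0, 144 and 148 TPM, the adhesion molecule IGSF11 55.3, 51.4 and 52.7 TPM, CLSTN2, a calsyntenin of neurons, 48.0, 50.7 and 47.1 TPM and MDFIC 32.5, 39.1 and 37.9 TPM. The lowest expressed was ABCD2 with 1.33, 1.39 and 1.75 TPM. A further list held 13 of the genes that the study's text discusses, but not all of them. GFI1B, which the text also names, was not in this list and was not detected. All 13 listed genes were expressed, including HLX (16.0, 19.8 and 18.8 TPM), B3GNT7 (7.56, 6.04 and 7.77 TPM) and, lowest, MESP1 (2.29, 2.41 and 1.63 TPM). On protein-coding models MESP1 had 1.62, 0.462 and 1.63 TPM, so that 12 of the 13 were expressed on those. In a list of 15 neural and developmental genes 4 were expressed: the homeobox factor LHX2 (30.6, 25.5 and 26.1 TPM), EYA4 (11.8, 9.93 and 11.3 TPM), the synaptic vesicle gene SYT1 (8.09, 9.57 and 9.36 TPM) and DLX6 (8.98, 7.61 and 8.43 TPM), whose exons overlap DLX6-AS1. MYT1L passed 1 TPM in replicate 3 only (0.883, 1.25 and 0.761 TPM), RBFOX3 and OLIG2 were not detected, and DLX5, NES, SOX11, SOX2, PAX2, PAX6, EYA1 and NEUROD1 were at 0.

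The 3 libraries resembled each other closely, and the spread fell with the level. Across the 10627 expressed genes Pearson correlations of log2 TPM were 0.991 to 0.993 between pairs of libraries (across genes, which are not independent replicates), and 96.0 to 97.0% of genes lay within 1.5-fold. The chi-square of the counts of each pair of libraries was 4.23 to 5.95 times its value under sampling noise, and no library was counted as a copy of another. The median SD of log2 TPM was 0.10, falling from 0.22 for the 1386 genes with a mean of 1 to 5 TPM to 0.058 for the 1135 genes over 100 TPM. The common biological coefficient of variation of edgeR was 0.0555 over 11296 genes.

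The genes that varied most included readthrough models and genes with close copies. Among 9221 protein-coding genes with a mean of at least 5 TPM and 50 counts in every library, 40 had an SD of log2 TPM over 0.5, and 15 when CPM were used in place of TPM. CFAP298-TCP10L, a readthrough model of neighboring genes, had 14.5, 6.64 and 0.928 TPM (SD 2.04). SERF1A, which has a near-identical copy, had 5.24, 2.37 and 26.7 TPM (SD 1.78). The zinc finger gene ZBTB43 had 3.06, 3.54 and 22.96 TPM, but its CPM were 13.7, 15.7 and 14.7, with an SD of 0.09 on the log2 scale. ENSG00000167774 had 18.1, 59.4 and 10.3 TPM, and HSPE1-MOB4, another readthrough, 3.58, 7.29 and 13.6 TPM. TMSB15B, IMMP2L, NPIPA9 and EGFL8 had SDs of 0.92, 0.81, 0.80 and 0.72 on TPM and 0.48, 0.21, 0.42 and 0.25 on CPM. U2AF1, a splicing factor gene, had 289, 122 and 304 TPM, lowest in replicate 3 on both scales.

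**Figure D5:**
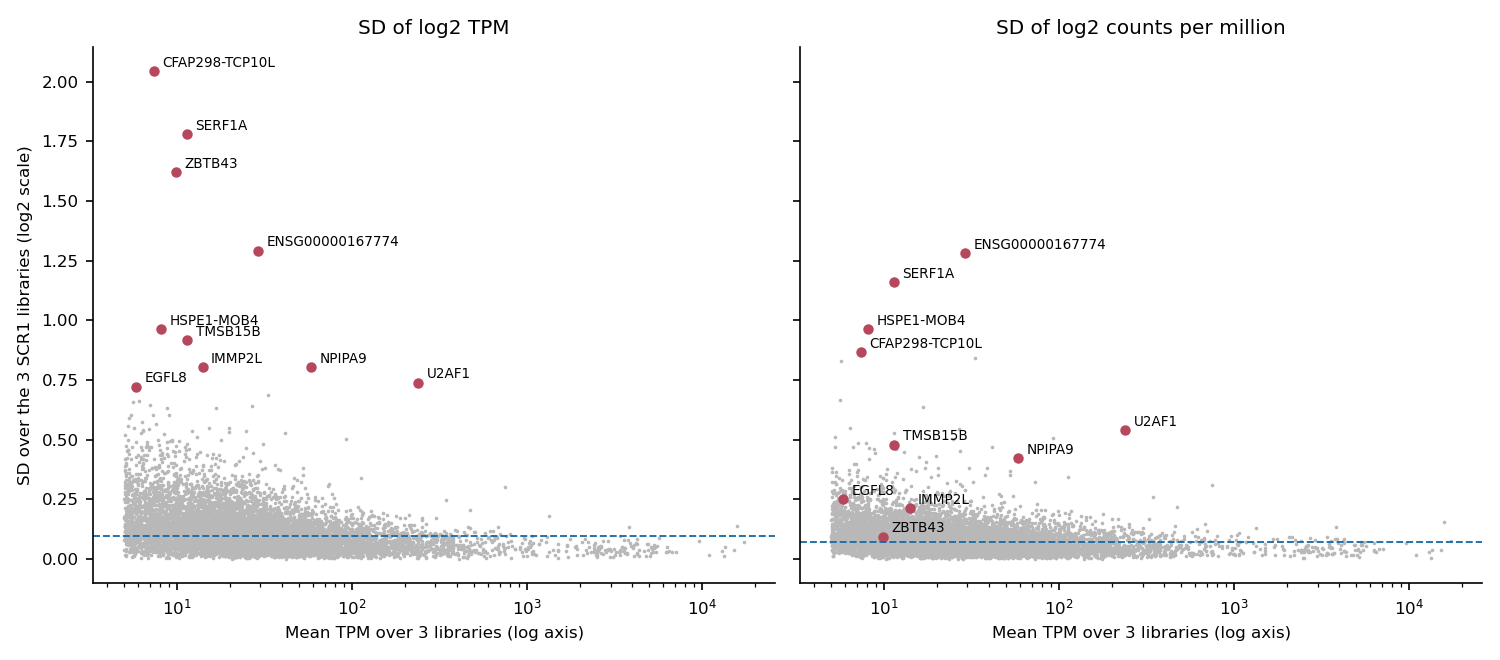
SD over the 3 SCR1 libraries (log2 scale) against mean TPM (log axis) for 9221 protein-coding genes, from TPM on the left and from CPM on the right, with the median dashed and the 10 genes with the largest SD of log2 TPM in red. CFAP298-TCP10L and SERF1A have the largest SD on the left, whereas ENSG00000167774 has the largest on the right and ZBTB43 falls from 1.62 on the left to 0.09 on the right.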

How the data were processed

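The deposited tables hold Salmon estimated counts and TPM per transcript for 9 libraries, and the 3 SCR1 libraries were used. The authors extracted total RNA with a Direct-zol kit, prepared TruSeq mRNA libraries, sequenced them as paired ends and processed the reads with nf-core/rnaseq, in which TrimGalore trimmed adapters, STAR aligned to GRCh38 and Salmon 1.10.1 assigned reads to transcripts. Strandedness and annotation release are not given in the sources used here. All 252835 transcript identifiers matched GENCODE release 44, which supplied symbols, transcript types and coordinates. The estimated counts the authors deposited are not whole in 88.1% of nonzero values. TPM as deposited were summed over the transcripts of each gene. Genes of chromosome Y and XIST (602) were left out, which left 62098 genes.

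Total estimated counts per library ranged from 17439072 to 29777361, and intervals from such counts would cover counting error only. Genes at 1 TPM or more in each library were called expressed and those under 0.1 TPM in each were called not detected. No groups were compared and no test was run. Spread is the SD of log2 TPM over 3 libraries for expressed protein-coding genes (no pseudocount). Dispersion came from edgeR 4.0.16 on the estimated counts without rounding. Size factors came from DESeq2 1.42.0 (R 4.3.3) on these counts rounded to whole numbers. Other steps were run in Python 3.11.15 with pandas 2.3.3, numpy 2.4.6 and Biopython 1.88. The script was tested on simulated data. Transcript shares are a transcript's TPM over its gene's TPM. Exon sequences were read from the GENCODE 44 transcripts on GRCh38, and pairs of unequal length were aligned globally.

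Members and gene lists were chosen with earlier results of these data known, and 5 of 35 lists and all 28 gene families were added after the levels were seen. Named genes were, per list, the highest, those at 1 TPM in some libraries and those not detected, with the transcript panel, the 20 highest protein-coding and 10 highest other genes, and the 10 protein-coding genes with the largest spread at 5 TPM and 50 counts or more. Every other gene named was chosen after its values were seen. Alternatives changed the level that counts as expressed, the scale, the transcripts summed, the pseudocount, the filter and the libraries. The other 6 libraries were not used. Some genes and 1 exon pair's sequences, though counted in the totals, are not reported here.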

Additional observations from a re-analysis of the deposited data

How the results depend on the processing

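Of 280 alternative counts of list members 277 lay within 1.5 times of the count given, as did all 8 alternative counts of expressed genes and all 5 of panel genes with a leading transcript over 50%. The exceptions were the T cell and the erythroid markers. At a limit of 2 TPM, 1 in place of 2 T cell markers was expressed, as TCF7 fell out. When transcripts annotated as protein-coding were summed alone, 1 T cell marker and 0 in place of 1 erythroid marker were expressed. TRAC is annotated as a T cell receptor gene and not as protein-coding, so this sum leaves it out at any level. The 10 most abundant genes held 7.91% of estimated counts in place of 12.3% of TPM, and 7.74% of TPM without mitochondrial genes. The median spread of 0.10 was 0.0776 on log2 CPM with TMM scaling, 0.0777 with DESeq2 size factors and 0.0606 without a filter and with a pseudocount of 1, and leaving out each library in turn gave 0.0773 to 0.0895. With CPM in place of TPM, an alternative chosen after seeing the data, 15 in place of 40 genes had an SD over 0.5. Of 86 alternative shares of a panel gene's leading transcript 58 moved by more than the spread between libraries and 28 did not. No paired analysis was possible because the 3 libraries belong to 1 group and no result comes from a test. Depth limits what can be said of genes with 0 counts to 0.0437 CPM over the 3 libraries.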
